A study of Mus musculus with 2 samples.

Results

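Mir103-1, Mir103-2 and Mir107 are 3 of the 1973 miRNA genes listed in the deposited count files, and they were chosen by matching the listed Ensembl identifiers to the GENCODE symbols. The libraries are small RNA from whole limb tissue of B6NCrl mouse embryos at day 11.5, with both sexes pooled. Replicate 1 was made from 109 healthy embryos and replicate 2 from 88, and both carry 1 donor identifier whose meaning the labels do not give. The 2 libraries form 1 group with no allele, agent or second tissue named, so levels were compared between genes and between libraries, and no condition was compared.

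Each of these hairpins sits inside a gene for a pantothenate kinase, the enzyme that starts coenzyme A synthesis from vitamin B5. An intronic miRNA hairpin is cut out of its host's transcript by Drosha, then trimmed by Dicer into a short duplex, and 1 strand of the duplex guides repression of messenger RNAs that pair with its seed, the bases near its 5′ end. The mature miRNAs miR-103 and miR-107 are known as regulators of insulin sensitivity through caveolin in fat and liver, and as repressors of Dicer itself.

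The 3 hairpins are printed from 5′ to 3′ with the 3p mature miRNA in capitals, because the counts below turn on which of their bases differ. Sequences are from RefSeq on GRCm38.p6, the same build as mm10.

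Mir103-1: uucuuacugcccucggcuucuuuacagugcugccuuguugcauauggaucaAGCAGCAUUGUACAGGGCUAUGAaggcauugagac
Mir103-2: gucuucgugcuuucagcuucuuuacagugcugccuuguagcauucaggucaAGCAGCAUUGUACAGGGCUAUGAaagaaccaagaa
Mir107: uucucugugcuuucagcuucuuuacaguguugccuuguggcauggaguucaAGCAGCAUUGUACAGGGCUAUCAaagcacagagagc

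Mir103-1 (ENSMUSG00000065553.1) lies on the plus strand at chr11:35782396-35782481, in intron 5 of Pank3. Mir103-2 (ENSMUSG00000065563.1) lies on the plus strand at chr2:131288052-131288137, in intron 5 of Pank2. Mir107 (ENSMUSG00000065594.1) lies on the minus strand at chr19:34820687-34820773, in intron 5 of Pank1. In the principal transcript of each host, which has 7 exons, the hairpin is on the host's own strand and follows the fifth exon. The introns differ in length, at 1740 nt in Pank3, 5801 nt in Pank2 and 7282 nt in Pank1, and the hairpins start 688, 454 and 326 nt after the upstream exon. Of the 1894 listed genes with coordinates, 38.0% lie in an intron of a protein-coding gene on its own strand, and of the 295 detected genes (10 CPM or more in both libraries, where CPM are counts scaled to a library total of 1000000 sense counts) 39.7% do.

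The 3p miRNA of Mir103-1 and Mir103-2 is the same over all 23 bases. That of Mir107 differs from it at 1 base, G22C, counted from 1 at the 5′ end of miR-103-3p. The seed, bases 2 to 8, is GCAGCAU in all 3 hairpins, and no other mature miRNA in the RefSeq table has it. The mature 3p sequences are printed with that seed in capitals.

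miR-103-3p: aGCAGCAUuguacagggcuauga
miR-107-3p: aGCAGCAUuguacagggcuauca

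The 5p arms, which pair with the 3p arms in the stem, do set the Mir103 hairpins apart, but by a single terminal base. From the arm of Mir103-1 to that of Mir103-2 the change is G1A, and from that of Mir103-2 to that of Mir107 it is C16U. The arms are printed with every base that is not the same in all 3 in capitals.

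miR-103-1-5p: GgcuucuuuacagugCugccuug
miR-103-2-5p: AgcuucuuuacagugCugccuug
miR-107-5p: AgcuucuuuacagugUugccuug

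These differences set how long a read must be to belong to 1 hairpin. A read that starts at the annotated 5′ end of miR-107-3p is found in no other annotated miRNA hairpin once it is 22 bases long. For miR-103-3p that length is 25 bases, which is longer than the mature miRNA. Each 5p arm is distinct at the shortest length searched, 18 bases, when the read starts at its annotated first base. A 5p read of a Mir103 hairpin that lacks the first base lies in the stretch common to both. The longest run shared by Mir103-1 and Mir103-2 is 27 bases, from position 49 to 75 of the hairpin, and Mir107 shares 24 bases with each. A second run of 23 identical bases, from position 16 to 38, covers the 5p arms of the Mir103 hairpins without their first base. Mir103-2 and Mir107 have a further run of 23 bases, from position 7 to 29. With all these runs included, the hairpins have 80.2% identity between Mir103-1 and Mir103-2, 80.5% between Mir103-1 and Mir107, and 83.9% between Mir103-2 and Mir107 over the whole alignment. In 141767 annotated transcripts, searched on both strands, miR-103-3p was found at Mir103-1 and Mir103-2 alone, and miR-107-3p at Mir107 alone. The rest of the genome was not searched.

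**Figure D1:**
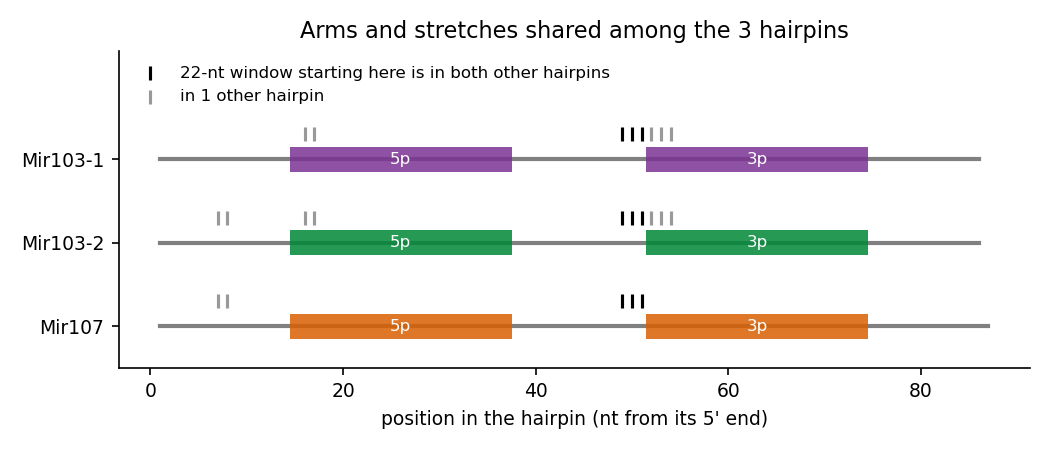
Map of the 3 hairpins by position in nt from the 5′ end. Coloured boxes are the 5p and 3p arms at positions 15 to 37 and 52 to 74, and ticks mark the first base of each 22-nt window also present in the other hairpins (black, both; grey, 1). In or just before the 3p arm Mir103-1 and Mir103-2 have the same 6 ticks. The 3 ticks that Mir107 has there, at positions 49 to 51, all lie before the arm. All other ticks lie in or just before the 5p arm.

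The files count reads for a whole hairpin, so the arms are not separated, and reads that align to several places stand in a line of their own. That multimapping line held 1644176 reads in replicate 1 and 1738400 in replicate 2, or 24.7% and 23.4% of all reads, against sense counts of 2953085 and 3459176 over all miRNA genes. For each count of a Mir103 or Mir107 hairpin there were 293 multimapping reads in the whole of replicate 1 and 276 in replicate 2. That ratio does not measure reads lost from these hairpins. The RNAs that the multimapping reads came from are not recorded, so how many are miRNA reads is not known. The part of such reads in the levels below was not tested, so each level is that of reads assigned to 1 place. Of the listed markers of limb mesenchyme, 4 of 4 were detected, at 1514 to 70319 CPM, and cartilage, muscle, epithelial, endothelial and blood cell markers were detected too, at 33.6 to 24194 CPM. The liver marker Mir122 was at 18.2 CPM. Of the 5 listed neuronal markers none reached 10 CPM, with a summed share of 0.000203% and 0.000231% of the counts. That is no measure of neuronal content, because both arms of Mir9-2 and Mir9-3 are identical to arms of other hairpins, and the arms of Mir124a-1, Mir124a-2 and Mir124a-3 were not matched here. In such whole tissue, fewer cells of a type and less RNA per cell cannot be told apart.

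The 3 hairpins stood at levels far apart, in the order Mir107, Mir103-2, Mir103-1, and the order was the same in both libraries. Mir107, the hairpin in Pank1, had 5249 sense counts in replicate 1 and 5855 in replicate 2. These are 1777 and 1693 CPM of all sense counts of miRNA genes, with Wilson 95% intervals of 1730 to 1826 and 1650 to 1736 CPM. Its mean was 1735 ± 60.0 CPM (SD, n = 2), at rank 77 of the 1973 genes.

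Mir103-2, the hairpin in Pank2, had 333 and 419 counts, or 113 and 121 CPM, with intervals of 101 to 126 and 110.1 to 133 CPM. Its mean was 117 ± 5.9 CPM (SD, n = 2), at rank 187. Mir103-1, the hairpin in Pank3, had 24 and 26 counts, or 8.13 and 7.52 CPM, with intervals of 5.46 to 12.1 and 5.13 to 11.0 CPM. Its mean was 7.82 ± 0.43 CPM (SD, n = 2), at rank 312. It lay under the detection level in both libraries, while its intervals reached above it. A count of 0 would allow up to 1.02 CPM in replicate 1 and 0.867 CPM in replicate 2, and Mir103-1 was above both. Such intervals and floors cover counting error only, since PCR copies are not independent molecules. All 3 hairpins had 0 counts on the opposite strand in both libraries.

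**Figure D2:**
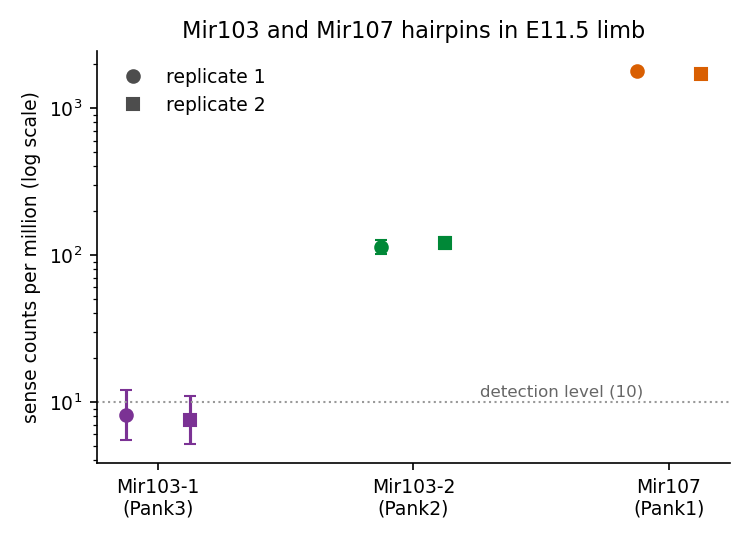
Sense CPM (log axis) of each hairpin, with its host gene in brackets; circles are replicate 1, squares replicate 2, and bars Wilson 95% intervals. Mir107 lies near 1735 CPM, Mir103-2 near 117 CPM and Mir103-1 near 7.82 CPM, below the dotted detection level of 10 CPM.

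The levels formed nearly even steps on the log scale. Mir107 was above Mir103-2 by 3.98 log2 units in replicate 1 and 3.80 in replicate 2, a mean of 3.89 ± 0.12 (SD, n = 2) or 14.8-fold. Mir103-2 was above Mir103-1 by 3.79 and 4.01 log2 units, a mean of 3.90 ± 0.15 or 15.0-fold. Mir107 was above Mir103-1 by 7.77 and 7.82 log2 units, a mean of 7.79 ± 0.03 or 222-fold. The counting error of the ratios to Mir103-1 was larger than their SD, at 0.305 and 0.292 log2 units for Mir103-2 over Mir103-1 and 0.295 and 0.284 for Mir107 over Mir103-1. Every ratio was more than 10 times its SD and its counting error. Neither error covers reads that fit several places, so these are ratios of reads assigned to a single place. An exact sign-flip test cannot go below p = 0.5 with 2 libraries, and none was run. A miRNA read spans a whole mature molecule, so counts were not divided by length. Per base of hairpin the ratios were 3.87, 3.90 and 7.78 log2 units in the order above.

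Together the 3 hairpins held 0.186% ± 0.005 of the sense counts (SD, n = 2). Mir107 accounted for 93.6% of their counts in replicate 1 and 92.9% in replicate 2, and the Mir103 hairpins together for 6.37% and 7.06%. Because reads of miR-103-3p of 24 bases or fewer that start at its first base fit both Mir103 hairpins, this split describes reads assigned to 1 place and not the amounts of miR-103 and miR-107.

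Between the libraries, Mir107 passed the exact binomial test with a small difference, and neither Mir103 hairpin passed. The test used TMM-scaled library sizes with Benjamini-Hochberg adjustment over 422 genes with 10 or more counts, and it compares these libraries, not conditions. Mir107 had a log2 ratio of −0.08 for replicate 2 over replicate 1 (95% interval −0.14 to −0.03, adjusted p = 0.0132, exact binomial test). Of all tested genes 21.3% passed, 9.48% with higher and 11.8% with lower values in replicate 2. The size of the Mir107 ratio was close to the median size of 0.08 over 201 tested genes with 100 CPM or more. With an overdispersed form of the test, scaled to the median gene, Mir107 did not pass (adjusted p = 0.339), while 11.4% of genes did. Scaled to all reads in the file in place of the sense total, Mir107 stood at 788 CPM in replicate 1 and 789 CPM in replicate 2, so with that denominator it was not lower in replicate 2. Mir103-2 had a log2 ratio of 0.09 (−0.12 to 0.30, adjusted p = 0.659, exact binomial test). Mir103-1 had a log2 ratio of −0.13, with a wide interval of −0.92 to 0.66 that its few counts allow (adjusted p = 0.925, exact binomial test).

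**Figure D3:**
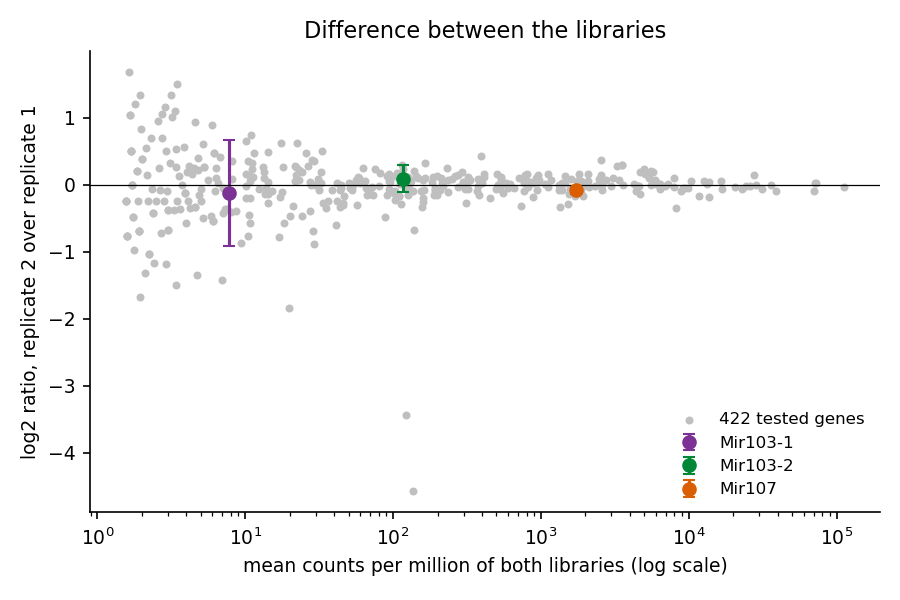
Log2 ratio of replicate 2 over replicate 1 against the mean level of both libraries in CPM (log axis) for the 422 tested genes (grey) and the 3 hairpins (coloured, with 95% intervals of counting error). The interval widens from Mir107 to Mir103-2 to Mir103-1 as the counts fall, and those of both Mir103 hairpins include 0.

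By level, the hairpins had different company. Next to Mir107 were Mir484 at 1762 ± 55.2 CPM and Mir135b at 1712 ± 132 CPM (SD, n = 2), and neither differed from it beyond the spread between libraries. A place further off were Mir425, whose library values of 1709 and 1933 CPM also overlap those of Mir107, and Mir301, whose 1549 and 1656 CPM do not. Around Mir103-2 lay Mir495, at 115 and 118 CPM, and Mir673, at 106 and 126 CPM, with overlapping values. Mir770, at 127 and 124 CPM, was higher in both libraries, and Mir6538 had 225 CPM in replicate 1 and 20.8 in replicate 2. The neighbours of Mir103-1 were Mir1298, Mir378d, Mir504 and Mir6546, with library values from 6.36 to 9.14 CPM that overlap its own.

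Mir107 and the Mir103 hairpins belong by sequence to a wider group with miR-15 and miR-16, miRNAs that carry AGCAGC at or next to their 5′ end and of which several are known to restrain the cell cycle. The members of the group that the levels turn on are printed with that hexamer in capitals. It starts at base 1 in miR-103 and miR-107 and at base 2 in the others, so the seeds overlap but are shifted by 1 base.

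miR-107-3p: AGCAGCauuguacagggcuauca
miR-103-3p: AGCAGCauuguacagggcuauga
miR-15a-5p: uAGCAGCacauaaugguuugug
miR-15b-5p: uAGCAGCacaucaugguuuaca
miR-16-5p: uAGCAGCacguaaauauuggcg
miR-195a-5p: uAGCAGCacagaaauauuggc
miR-322-5p: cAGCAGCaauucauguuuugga
miR-503-5p: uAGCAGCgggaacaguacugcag

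Of 1738 mature sequences in the RefSeq table, 15, or 0.863%, hold the hexamer starting at base 1, 2 or 3. Those come from the 11 genes of the group's list and from Mir6342, Mir6353, Mir6419 and Mir195b, which were named after the search. Of the 11 genes, 10 were found in the count files by their GENCODE symbol. Mir497 was not found by that symbol and was not analysed here. Together these 10 held 8.69% ± 0.05 of the sense counts (SD, n = 2), and the Mir103 and Mir107 hairpins made up 2.19% of that in replicate 1 and 2.09% in replicate 2. Mir322 alone made up 83.0% and 84.1%. These shares cover reads assigned to 1 place. Mir16-1, Mir16-2 and both Mir103 hairpins each have 1 arm identical to an arm of another hairpin, and Mir322 has none. The part of such sharing in the shares and in the ranks below was not tested.

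By reads assigned to 1 place, Mir107 ranked sixth in the group and the Mir103 hairpins last. Mir322 was at 71826 and 73356 CPM, 5.39 ± 0.07 log2 units above Mir107 (SD, n = 2). Mir15a, at 4686 ± 281 CPM, Mir503, at 2584 ± 84.0 CPM, Mir15b, at 2049 ± 44.3 CPM, and Mir16-1, at 1918 ± 155 CPM, came between them. The lower of the Mir16-1 values, 1809 CPM, stood just above the higher Mir107 value, 1777 CPM, and Mir15b and Mir16-1 overlapped each other. Below Mir107 were Mir195a at 653 ± 12.4 CPM and Mir16-2 at 534 ± 0.36 CPM, whose counting error is larger than that SD. Between the libraries, 5 of the 10 genes passed the exact binomial test against 21.3% of all tested genes. Mir322 had a higher value in replicate 2, and Mir15a, Mir16-1, Mir503 and Mir107 had lower ones. This test passes smaller differences as counts rise, and with a filter of 100 counts 94 of 279 genes passed. No background matched on level was taken. With the overdispersion of the median gene 2 of the 10 passed, Mir15a and Mir16-1, against 11.4% of all tested genes. With that of the mean over genes none of the 10 passed, and 12 of the 422 tested genes did. The median log2 ratio of the group was −0.07, and that of all tested genes lay near 0.

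**Figure D4:**
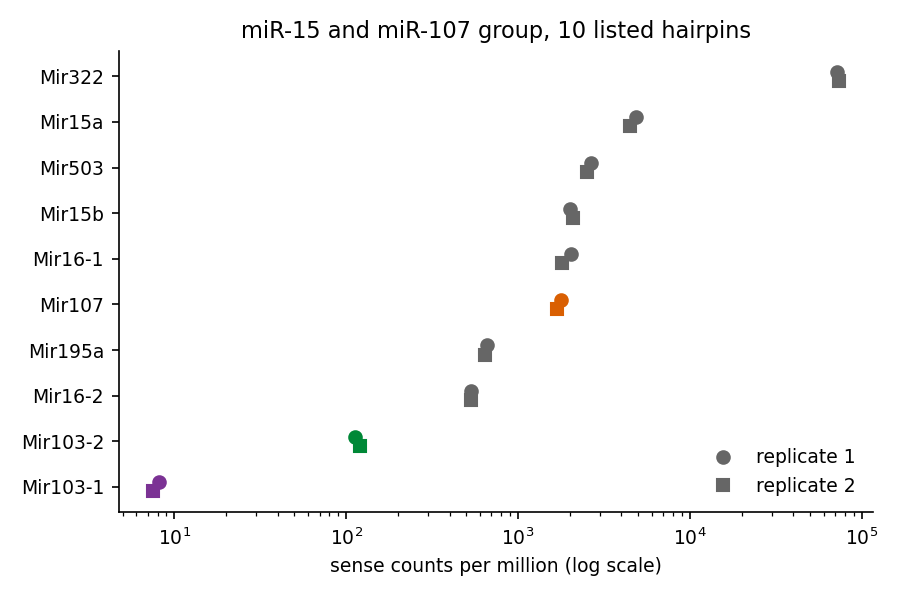
Sense CPM (log axis) of the 10 listed hairpins of the miR-15 and miR-107 group, with circles for replicate 1 and squares for replicate 2. Mir107 (orange) lies between Mir16-1 and Mir195a, and Mir103-2 (green) and Mir103-1 (purple) lie below all others, at 117 and 7.82 CPM.

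Of the other listed families in paralogous hosts, that of Mir26 also has a pair of hairpins with a common arm and another hairpin without one. The Mir26 hairpins lie in introns of the Ctdsp genes, which encode small phosphatases acting on RNA polymerase II, and Mir26a-1 and Mir26a-2 give the same miR-26a-5p. Mir26b, with neither arm shared, had 17041 and 16443 CPM. Mir26a-2 had 39.6 and 37.9 CPM, and Mir26a-1 had 12.9 and 13.9 CPM. Mir26b was thus 432-fold above Mir26a-2, where Mir107 was 14.8-fold above Mir103-2. In both families the hairpin with neither full arm shared was the highest. When the first 18 bases alone had to match, Mir107 counted as having 1 arm shared, while Mir26b still had none. With 2 families this is a description only.

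The mature sequences of this family are printed with seeds in capitals. They show the same plan of a pair with an identical arm and another hairpin that differs.

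miR-26a-5p: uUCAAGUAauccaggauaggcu
miR-26b-5p: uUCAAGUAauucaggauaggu

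Mir128-1, in R3hdm1, and Mir128-2, in Arpp21, were at 94.5 ± 2.4 and 21.8 ± 0.65 CPM (SD, n = 2). Mir218-2, in Slit3, and Mir218-1, in Slit2, whose hosts encode axon guidance ligands, were at 70.3 ± 4.5 and 8.67 ± 1.63 CPM. These families hold 2 listed hairpins each, and each of the 4 has 1 arm in common with its partner, as the Mir103 hairpins do. Of the 10 genes in this list of paralogous hosts, Mir103-1 and Mir218-1 were not detected, and their library values overlapped.

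**Figure D5:**
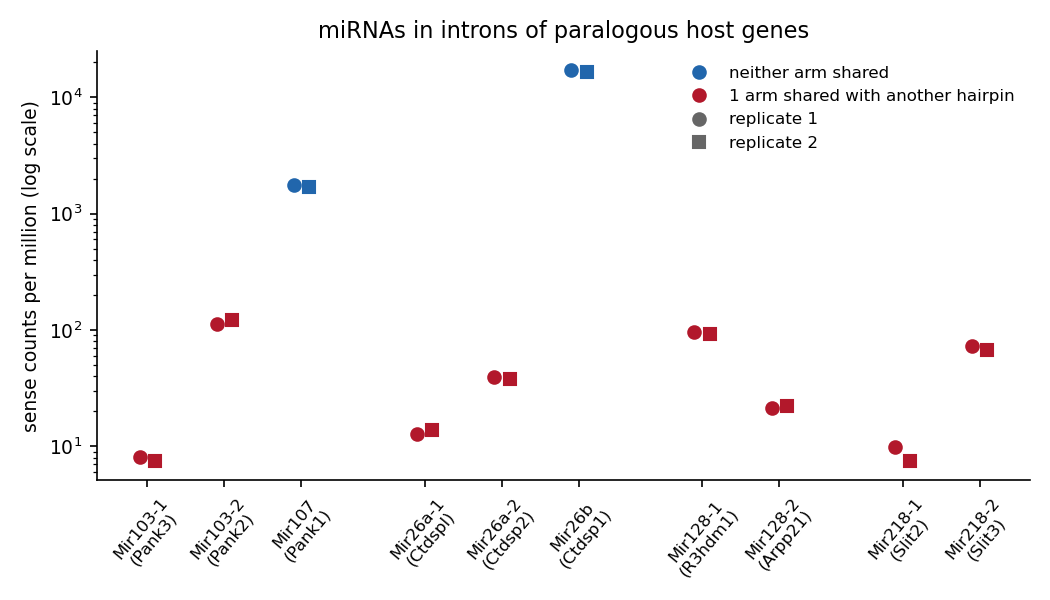
Sense CPM (log axis) of 10 hairpins in introns of paralogous hosts, grouped by family, with the host in brackets. Blue marks hairpins with neither arm shared over its full length (Mir107 and Mir26b), red those with 1 arm identical to that of another hairpin, circles replicate 1 and squares replicate 2; the red hairpins lie between 7.52 and 121 CPM.

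Across the series, Mir103-1 and Mir103-2 fall among 56 listed genes with 2 annotated arms of which 1 is identical to an arm of another hairpin. Mir103-2 was the 13th highest of them and Mir103-1 the 35th. In this class 32 genes, or 57.1%, were detected, and the median was 25.8 CPM over all 56 genes and 82.4 CPM over those detected. Of 509 genes with neither arm shared, Mir107 among them, 198, or 38.9%, were detected. Their median was 1.91 CPM over all genes and 434 CPM over those detected. Genes with 1 arm shared were thus detected more often and had the higher median over all genes, while their median over detected genes was the lower one. Mir107 moves to the class with 1 arm shared when the first 18 bases alone have to match. Within the class with 1 arm shared, Mir16-1, whose miR-16-5p arm is shared, held 1918 CPM of reads assigned to 1 place. The classes differ in more than the sharing of an arm, and the part of sharing in the Mir103 levels was not tested. Among arms of detected genes, 90.1% of 507 were distinct from all other hairpins at 18 bases. A further 35 needed 22 to 26, and 8 were not distinct by 26 bases or by the end of the hairpin, where that came first. Of the 6 arms of the 3 hairpins, 3 needed 22 or more.

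The gap between the Mir103 hairpins was wide among duplicated miRNAs. In this comparison, chosen after the levels were seen, 20 pairs of listed hairpins shared 1 mature sequence and no more, and 16 had 10 or more counts at each hairpin. The higher hairpin exceeded the lower by a median of 4.71-fold, in a range of 1.34- to 59.9-fold. The 15.0-fold gap of Mir103-2 over Mir103-1 was the fifth widest, next to 16.3-fold for Mir7-1 over Mir7-2 and 8.17-fold for Mir218-2 over Mir218-1. In log2 units the Mir7 and Mir103 gaps were 4.03 and 3.90. The counting error of the Mir103 gap was 0.305 and 0.292 log2 units, so the order of those pairs is not resolved. The widest was that of Mir181b-2 over Mir181b-1. These ratios rest on reads assigned to 1 place, and the arm that those reads came from is not recorded.

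The hairpins also differ in predicted folding. The minimum free energy was −41.2 kcal/mol for Mir107, −35.8 for Mir103-1 and −31.8 for Mir103-2. Per 100 nt these are −47.4, −41.6 and −37.0, where the quartiles of 260 detected genes were −48.5 and −38.9. Mir103-1 was predicted to fold more stably than Mir103-2 and had fewer reads assigned to 1 place. The part of folding in the levels was not tested.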

How the data were processed

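Small RNA of 2 limb libraries was analysed. The authors deposited raw counts of reads per miRNA gene, not normalized, on assembly mm10 with GENCODE M4, per the notes deposited with each sample; no source used here names the aligner or counting tool. The column holding nearly all counts was read as sense. Lines for unmapped, multimapping, feature-less (6.45% and 5.39% of reads) and ambiguous (0) reads stayed out of library sizes and tests. Unmapped reads took 23.6% and 23.5%.

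Symbols, coordinates and introns came from GENCODE M21 (1894 of 1973 identifiers matched, versions removed), and mature and hairpin sequences from RefSeq GRCm38.p6 (927 matched). Shared reads were sought as exact matches, on either strand, of 18 to 26 bases in all RefSeq and GENCODE miRNA hairpins. CPM was taken over all sense counts. Libraries were compared by a two-sided exact binomial test with edgeR 4.0.16 TMM sizes and a prior count of 0.5 for ratios; edgeR's own test was not used, because there is 1 group. The test was checked on simulated data with counting error alone, so the check does not cover the overdispersion of these libraries. Labels give separate embryo pools but 1 donor identifier. The exact binomial p-values set the difference between these libraries against counting error alone, and they hold no estimate of the spread between pools. Alternatives covered the count column, denominator, length, pseudocount, scaling (DESeq2 1.42.0), filter, overdispersion, detection level, match length and each library alone. Folding used ViennaRNA 2.7.2, and Python 3.11.15, scipy 1.17.1 and R 4.3.3 did the rest.

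The members and gene lists were chosen with earlier results of these data known. Named genes are the 3 hairpins, the miR-15 and miR-107 group, the list of duplicated miRNAs in paralogous hosts, genes with the same seed, and the 2 genes next above and below each hairpin in mean CPM; others are marked as chosen later.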

Additional observations from a re-analysis of the deposited data

Results flagged for a closer look

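Reads that aligned to several places, which no level or test above used, numbered 1644176 in replicate 1 and 1738400 in replicate 2. The 3 counts set as the limit for a count of 0 apply to a single gene, so they are no yardstick for these totals. The series has no control samples to set these reads against, and the RNAs they came from are not recorded.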

How the results depend on the processing

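The order of the 3 hairpins and the direction of every ratio among them held under each alternative tried, each library alone included. Apart from each library alone, these alternatives could not have reversed the order. Denominators and pseudocounts were the same for all 3 hairpins, both count columns hold the same values for them, and their lengths are nearly equal. Reads that fit several places could not be reassigned. Levels moved with the denominator. With multimapping reads added to it, Mir103-1 stood at 5.11, Mir103-2 at 76.5, Mir107 at 1134 and their sum at 1216 CPM; over all reads the values were 3.55, 53.2, 788 and 845. Per kilobase of hairpin, Mir107 was at 1672 and the sum at 1794 CPM. With a pseudocount of 1 the log2 ratio of Mir107 over Mir103-1 was 7.74. The share of the miR-15 and miR-107 group was 8.49% with counts of both strands. Between the libraries 90 genes differed, 48 with the overdispersion of the median gene and 12 with that of the mean over genes; the Mir107 ratio of −0.083 did not pass in either form (adjusted p = 0.339 and 0.999998) and passed under each other scaling, filter and column. With total counts as scaling 45 genes were higher and 42 lower in replicate 2, against 40 and 50. Detected genes with 1 of 2 arms shared numbered 15 at 100 CPM, with a median of 414 CPM; the median was 55.6 CPM at a detection level of 1 CPM and 115 CPM when the first 18 bases had to match, which places Mir107 in that class. With a filter of 100 counts Mir103-1 gave no value. The library test needs both libraries, so leaving 1 out gave no value there. No paired analysis was possible because all samples belong to 1 group. The 24 and 26 counts of Mir103-1 limit what its ratio between libraries can show.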
